A study of Mus musculus with 28 samples.

Results

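The semaphorins and ephrins are signals that steer moving cells, often by repelling them. The plexins, neuropilins and Eph receptors are the proteins that read them. These genes were followed here in O9-1, a single mouse cell line that models the cranial neural crest, the migrating embryonic population that forms much of the face. The members were taken by their gene symbols: 49 of the 54429 genes in the count table belong to the semaphorin classes 3 to 7, the plexins, the neuropilins, the Eph receptors or the ephrins. Of these, 45 had a mean of at least 10 counts in at least 1 group and are described below, and Epha8, Ephb1, Plxnb3 and Sema4a stayed under that level. The 45 are 7 class 3 semaphorins, 11 semaphorins of classes 4 to 7, 2 neuropilins, 8 plexins, 5 EphA receptors, 4 EphB receptors, 5 ephrin-A and 3 ephrin-B genes.

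Polyadenylated RNA was sequenced in 28 libraries that form 8 groups. At 21% O2 (called normoxic) each group has 4 libraries, and at 0.5% O2 (called hypoxic) it has 3. Each oxygen level has 1 group of proliferating cells and 3 groups given media meant for chondrocytes, osteoblasts or smooth muscle. The study asked how low oxygen bears on the differentiation of these cells. Proliferating cells grew in medium conditioned by STO feeder cells, with 15% fetal calf serum, bFGF at 25 ng/ml and LIF at 5 ng/ml. For chondrocytes, 3 days of osteogenic medium preceded 7 days as micromasses on matrigel with 5% serum, insulin-transferrin-selenium, dexamethasone at 0.1 µM, TGF-beta3 at 10 ng/ml and BMP-2 at 50 ng/ml. Osteoblast cultures spent 10 days with 10% serum, beta-glycerophosphate at 10 mM, dexamethasone at 0.1 µM and BMP-2 at 100 ng/ml, and smooth muscle cultures spent 3 days with 10% serum and no growth factor. All groups come from the same line, and the labels do not say whether libraries of a group were separate cultures, so p-values measure the spread between these libraries, which may be technical.

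Class 3 semaphorins are secreted, and most of them act through a complex in which a neuropilin binds the ligand and a plexin carries the signal into the cell. Semaphorins of the other classes studied here are held in the membrane and mostly bind plexins directly, and the plexin tail switches off small GTPases of the Ras family, which loosens adhesion and collapses the leading edge. Ephrins are also tethered to the cell surface, the A type by a lipid anchor and the B type by a transmembrane segment, and they activate Eph receptor tyrosine kinases on touching cells while signalling back into their own cell. In the neural crest, both systems are known for keeping migrating streams apart and for steering cells into the branchial arches.

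Levels are given as CPM, counts per 1e+06 after TMM scaling over all 28 libraries, and changes as log2 fold changes, each followed by its SE (standard error). A gene was called when the edgeR quasi-likelihood test gave a Benjamini-Hochberg adjusted p under 0.05 over all genes tested and the change was at least 2-fold. In bulk RNA, fewer cells that express a gene and less RNA per cell cannot be told apart. Genes with few counts in both groups of a comparison were not tested there. A member that entered a test only through the group in which it is high had to differ, so the counts below describe the tested members, not all 45.

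Some libraries stood apart. Library totals lay between 19869271 and 64693346 counts. In the 3 hypoxic smooth muscle libraries, the mitochondrial ribosomal RNA genes took 11.6% to 13.3% of the counts, against at most 0.0889% in the other 25, and the 45 members together took 0.0607% to 0.0772%, against 0.341% to 0.385% in the normoxic smooth muscle libraries. The summed level of the 5 smooth muscle markers was 28.5 to 42.4 CPM there, against 3324 to 3758 CPM in normoxic smooth muscle cultures and 36.3 to 43.3 CPM in hypoxic proliferating ones. The macrophage markers summed to 33.6 to 37.4 CPM there and to at most 5.86 CPM in every other group, carried by Cd68, while Lyz2 had 0 counts and Ptprc 3 counts in the hypoxic smooth muscle libraries. In normoxic osteoblast libraries 1 to 3 the 5 osteoblast markers summed to 62.7, 72.8 and 71.5 CPM, and in library 4 to 146 CPM. Normoxic proliferating cells had 58.4 to 67.4 CPM, and normoxic chondrocyte cultures 1053 to 2549 CPM. With all 4 osteoblast libraries, 3 of the 4 markers tested were called higher, with a median of 7.40 on the log2 scale. Normoxic osteoblast library 4 differed from the other 3 of its group: its chondrocyte markers summed to 1254 CPM, against 129 to 145 CPM, and it lay outside the other 3 by Dixon's test for 18 of the 45 members. For that group, counts of member calls, member calls that changed and printed member values that moved by over 1.5-fold are also given without it. Calls of markers and of other gene lists were made with it only.

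Compared per kilobase of exon (GENCODE vM21), so that genes can be set side by side, Plxnb2 was the most abundant member, with a mean of 65.8 CPM per kb over the 8 groups. Plexin B2 is a receptor of class 4 semaphorins. It had 43.5 to 100.5 CPM per kb in the 8 groups and ranked first in each but normoxic osteoblast cultures, where Sema3c had 63.5 against 56.9 for Plxnb2. Without normoxic osteoblast library 4, Plxnb2 ranked first there too, with 56.6 against 49.7 for Sema3c. The mean of Sema3c was 28.4 CPM per kb, but its groups were unlike, with 0.875 to 3.33 in proliferating and smooth muscle cultures and 90.7 in hypoxic chondrocyte cultures. Next by mean came Plxna1 with 27.7, Epha2 with 24.7, Ephb4 with 24.0 and Nrp2 with 23.6 CPM per kb. The lowest of the 45 were Sema6a with 0.0779 and Sema3e with 0.126 CPM per kb. The highest group mean fell in normoxic osteoblast cultures for 11 members, in normoxic smooth muscle cultures for 11, in hypoxic chondrocyte cultures for 9, in hypoxic proliferating cells for 8, in normoxic chondrocyte cultures for 3 and in hypoxic osteoblast cultures for 3. No member was highest in normoxic proliferating or hypoxic smooth muscle cultures. Without normoxic osteoblast library 4 these counts were 10 for normoxic osteoblast, 10 for normoxic smooth muscle and 5 for hypoxic osteoblast cultures, as Epha4, Sema3e and Sema4c changed place.

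**Figure D1:**
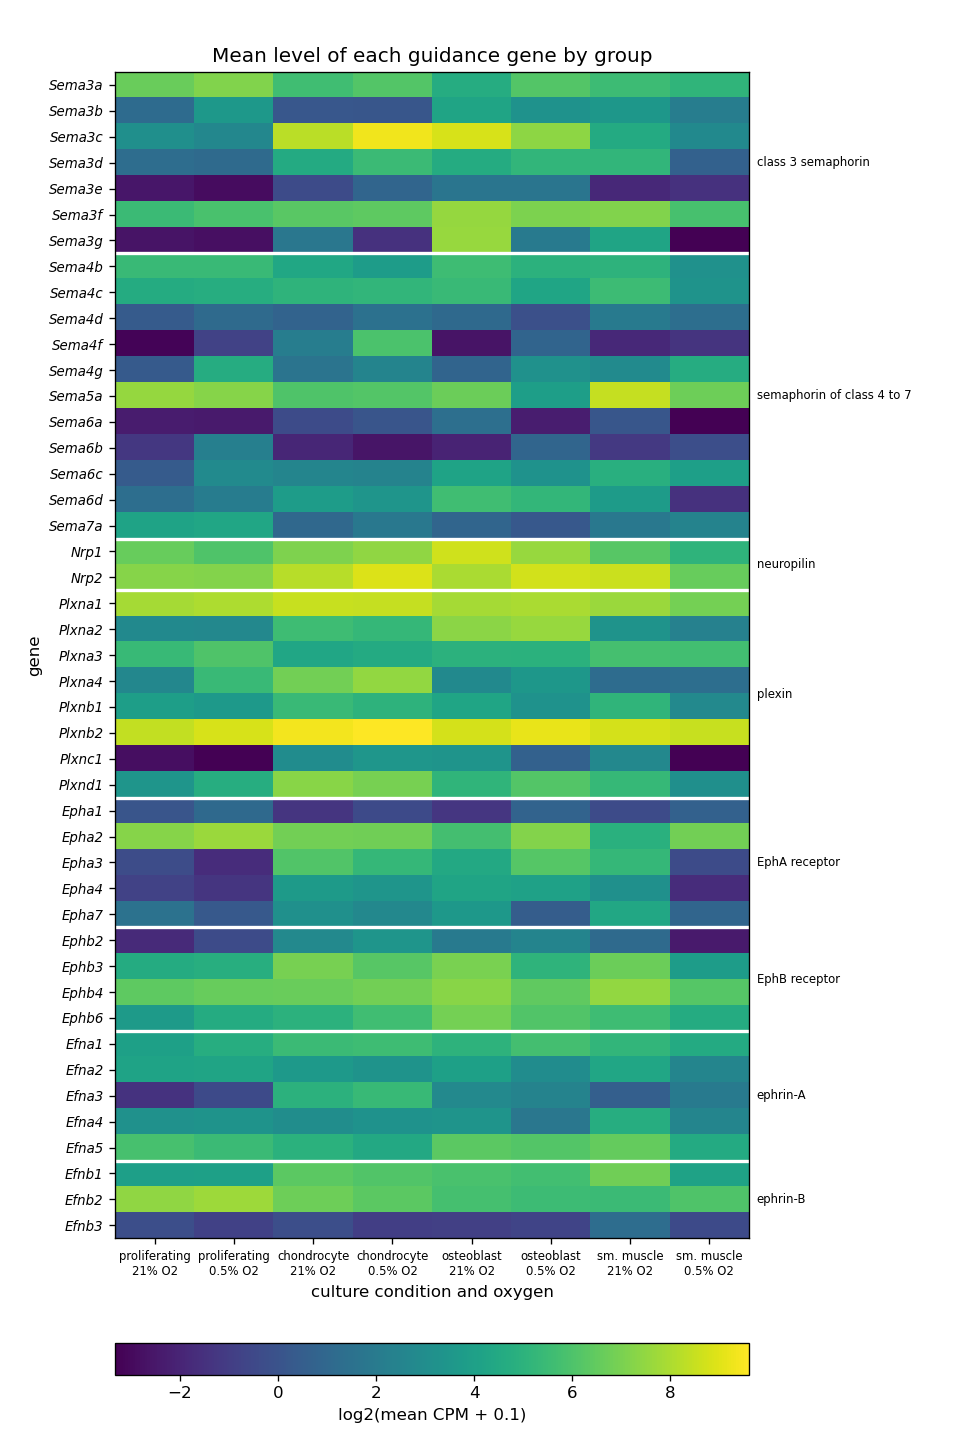
Mean level of each of the 45 genes (rows, by role) in the 8 groups (columns), as log2(mean CPM + 0.1), from dark (low) to yellow (high). Sema3c is high in the chondrocyte and osteoblast columns, Plxnb2 is high in all columns, and the hypoxic smooth muscle column is dark for Sema3g, Sema6a and Plxnc1, which had 0 counts there.

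Each differentiated culture was first set against proliferating cells at the same oxygen level. At 21% O2 the guidance genes mostly rose. In chondrocyte cultures 24 of 43 tested members were called higher (19.9% of all tested genes were) and 4 lower (15.4% of all genes). In osteoblast cultures 22 of 43 were higher (24.3% of all genes) and 5 lower (20% of all genes). Leaving out normoxic osteoblast library 4 gave 22 and 5 again (3545 and 3243 of all 14699 genes). In smooth muscle cultures 26 of 43 were higher (22.3% of all genes) and 5 lower (17% of all genes). The median member changed by 1.31, 1.05 and 1.51 on the log2 scale in that order, while the median of all tested genes lay at 0, 0.07 and 0.03. Scaled by library size alone, the median of all genes in chondrocyte cultures moved to -0.35. Then 21 of 43 members were higher and 9 lower, beside 2183 higher and 3465 lower of all 14360 genes tested. Markers of other lineages rose beside the members. Smooth muscle markers were higher in 3 of 3 tested in chondrocyte (1910 to 2290 CPM in sum) and 4 of 4 in osteoblast cultures. The osteoblast sums were 3065 to 3220 CPM in libraries 1 to 3 and 4684 CPM in library 4, against 47.7 to 53.1 CPM in normoxic proliferating cells. Chondrocyte markers were higher in 4 of 4 in both. Their osteoblast sums were 129 to 145 CPM in libraries 1 to 3 and 1254 CPM in library 4, against 20.6 to 23.9 CPM in normoxic proliferating cells. In normoxic smooth muscle cultures 2 of 3 tested chondrocyte markers and both tested endothelial markers were higher, the latter with sums of 2.44 to 2.55 against 0.405 to 0.762 CPM. Of the 3 genes kept as signs of RNA quality (mt-Rnr1, mt-Rnr2 and Rn7sk), 1 was higher in chondrocyte cultures and 2 in each of the other cultures. Of 3 glial markers, 2 were higher and 1 lower in chondrocyte cultures (10.2 to 13.7 against 1.61 to 2.12 CPM in sum), and 2 were higher in osteoblast cultures. In smooth muscle cultures 1 of 2 was higher and 1 lower. Of 9 hypoxia response genes 6 were higher in chondrocyte, 2 higher and 2 lower in osteoblast, and 1 higher and 3 lower in smooth muscle cultures. The part of these shifts was not tested.

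At 0.5% O2, chondrocyte cultures had 20 of 44 members higher (15.5% of all genes) and 11 lower (16.3% of all genes), and osteoblast cultures had 19 of 44 higher (17.3% of all genes) and 11 lower (17% of all genes). With library size alone these became 19 higher and 13 lower, and 17 higher and 11 lower. All genes tested then had 1635 higher and 3287 lower of 14347 in chondrocyte, and 2010 higher and 3120 lower of 14338 in osteoblast cultures. Other markers moved here as well: smooth muscle markers were higher in 3 of 3 tested in chondrocyte and 4 of 4 in osteoblast cultures, neuron markers in 3 of 3 and 2 of 3 (1 lower), chondrocyte markers in 3 of 3 and 4 of 4, the tested endothelial marker in chondrocyte cultures, and glial markers were lower in 2 of 3 and higher in 1 in chondrocyte cultures. Their part was not tested. Hypoxic smooth muscle cultures differed in direction: 2 of 39 members were higher (22% of all genes) and 12 lower (19.5% of all genes), with a median of -0.65. That count depends on the scaling, because library size alone moved the median of all genes to -1.35 and called 1 member higher and 33 lower. Of all 14080 genes tested, 1193 were then higher and 8231 lower. The shift of ribosomal RNA and of the smooth muscle and macrophage marker sums given above accompanies every result in this group, and its part in them was not tested.

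**Figure D2:**
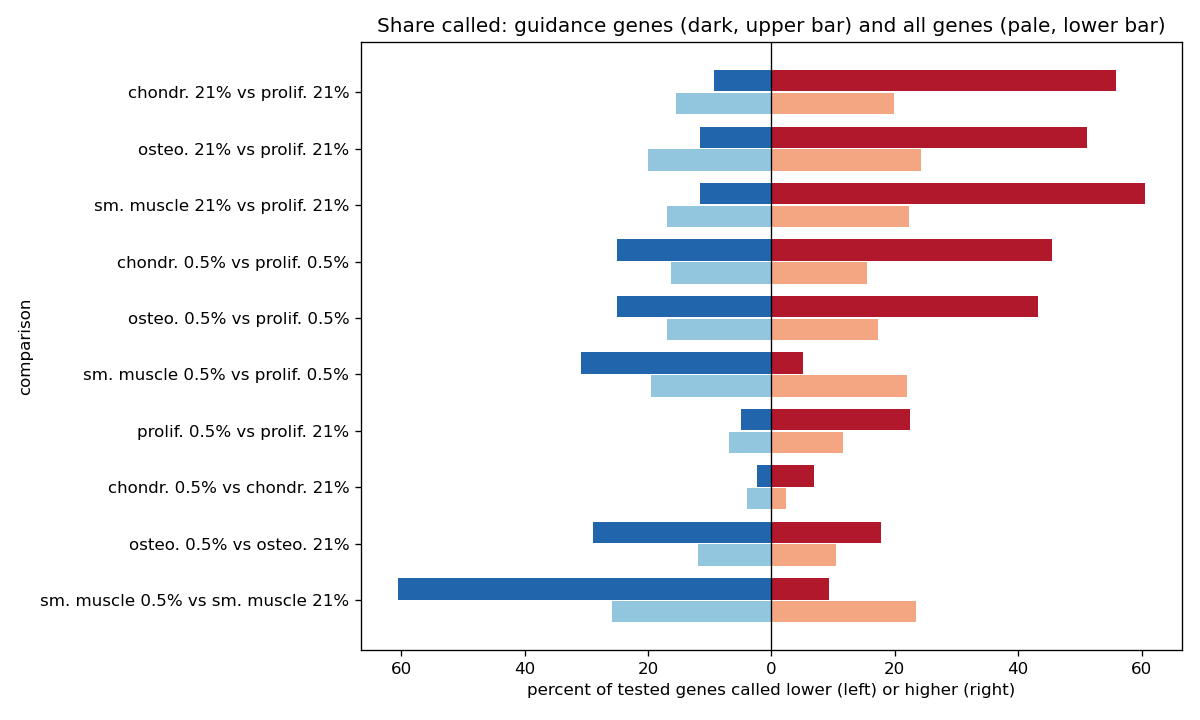
Percent of tested genes called higher (right) or lower (left) in each of the 10 comparisons, for guidance genes (dark bars) and for all genes (pale bars). The dark bars reach furthest right in normoxic smooth muscle cultures (26 of 43 members) and furthest left in hypoxic against normoxic smooth muscle cultures (26 of 43 members).

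Among the class 3 semaphorins, 3 rose and 1 fell of 6 tested in normoxic chondrocyte cultures, 6 rose and 1 fell of 7 in osteoblast cultures, and 5 rose and 1 fell of 6 in smooth muscle cultures. For each class counted below, the shares of all tested genes called are 19.9% higher and 15.4% lower in chondrocyte, 24.3% and 20% in osteoblast, and 22.3% and 17% in smooth muscle cultures. Sema3c (ENSMUSG00000028780, chr5:17574281-17730268, plus strand, mm10), a ligand of neuropilins 1 and 2 that steers cardiac neural crest, was the most abundant of them. Its normoxic proliferating libraries had 9.74, 10.2, 9.18 and 5.29 CPM, and the normoxic chondrocyte libraries had 269, 286, 338 and 317 CPM. The groups did not overlap, and the rise was 5.19 (SE 0.18, edgeR adjusted p = 2.34e-09). The normoxic osteoblast libraries had 363, 357, 344 and 748 CPM, the last being the library that stood apart, and the rise of Sema3c was 5.77 (SE 0.35, adjusted p = 2.9e-07). In smooth muscle cultures it was smaller, at 1.51 (SE 0.16, adjusted p = 1.65e-06), with 21.9 to 27.7 CPM.

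Sema3g, a secreted ligand that signals through neuropilin 2, was highest in normoxic osteoblast cultures. It had 223, 222, 222 and 118 CPM in the normoxic osteoblast libraries. All 4 normoxic proliferating libraries were at or below 0.135 CPM. The rise in osteoblast cultures was 11.96 (SE 0.45, adjusted p = 1.52e-08), the largest of any member in the 10 pairwise comparisons where both groups had more than 3 counts. Normoxic smooth muscle cultures had 15.4 to 22.3 CPM, a rise of 8.59 (SE 0.33, adjusted p = 5.22e-12). These 2 rises of Sema3g rest on few counts in proliferating cells: they became 12.90 and 9.54 without normoxic proliferating library 1, and 11.17 and 7.79 without library 2. At 0.5% O2, Sema3g reached 5.69, 3.44 and 2.15 CPM in osteoblast libraries and had 0 counts in all 3 smooth muscle libraries.

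Sema3a, the neuropilin 1 ligand first known for repelling growing axons, went the other way. Its normoxic proliferating libraries had 102, 106, 103 and 96.3 CPM, and the osteoblast libraries had 24.1, 25.2, 25.7 and 28.4 CPM, a change of -1.92 (SE 0.07, adjusted p = 8.84e-09). It was also called lower in normoxic smooth muscle cultures, at -1.07 (SE 0.06, adjusted p = 2.81e-10), and in all 3 hypoxic differentiated groups, at -1.05 in chondrocyte, -1.04 in osteoblast and -1.91 in smooth muscle cultures. Sema3d rose in the 5 differentiated groups other than hypoxic smooth muscle, by 3.40 to 4.36. Sema3f, which binds neuropilin 2, rose in normoxic osteoblast (2.09, SE 0.14, adjusted p = 5.59e-07) and smooth muscle cultures (1.68, SE 0.08, adjusted p = 1.33e-11), to 185 ± 38.2 (SD, n = 4) and 140 ± 18.2 CPM (SD, n = 4). Sema3e, which can act on plexin D1 without a neuropilin, was scarce, with 0.0707 ± 0.0382 CPM (SD, n = 4) in normoxic proliferating cells and 3.20 ± 1.02 CPM (SD, n = 4) in normoxic osteoblast cultures, a rise of 5.58 (SE 0.41, adjusted p = 9.58e-07). Hypoxic proliferating cells held 3 counts of Sema3e in all, so the ratio of hypoxic osteoblast to proliferating cultures was 93.8 with a 95% counting interval of 31.7 to 458.

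Both neuropilins were abundant in every group. Nrp1 (chr8:128358604-128503363, plus strand) was highest in normoxic osteoblast cultures, with 454, 432, 433 and 332 CPM, against 90.9 to 100 CPM in normoxic proliferating cells, a rise of 2.14 (SE 0.10, adjusted p = 3.73e-08). Nrp2 was highest in hypoxic chondrocyte cultures, with 482, 510 and 474 CPM, against 146 to 152 CPM in hypoxic proliferating cells, a rise of 1.70 (SE 0.06, adjusted p = 2.98e-11). In normoxic smooth muscle cultures Nrp2 rose by 1.39 (SE 0.06, adjusted p = 1.18e-11), while Nrp1 changed by -0.32 and was not called.

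**Figure D3:**
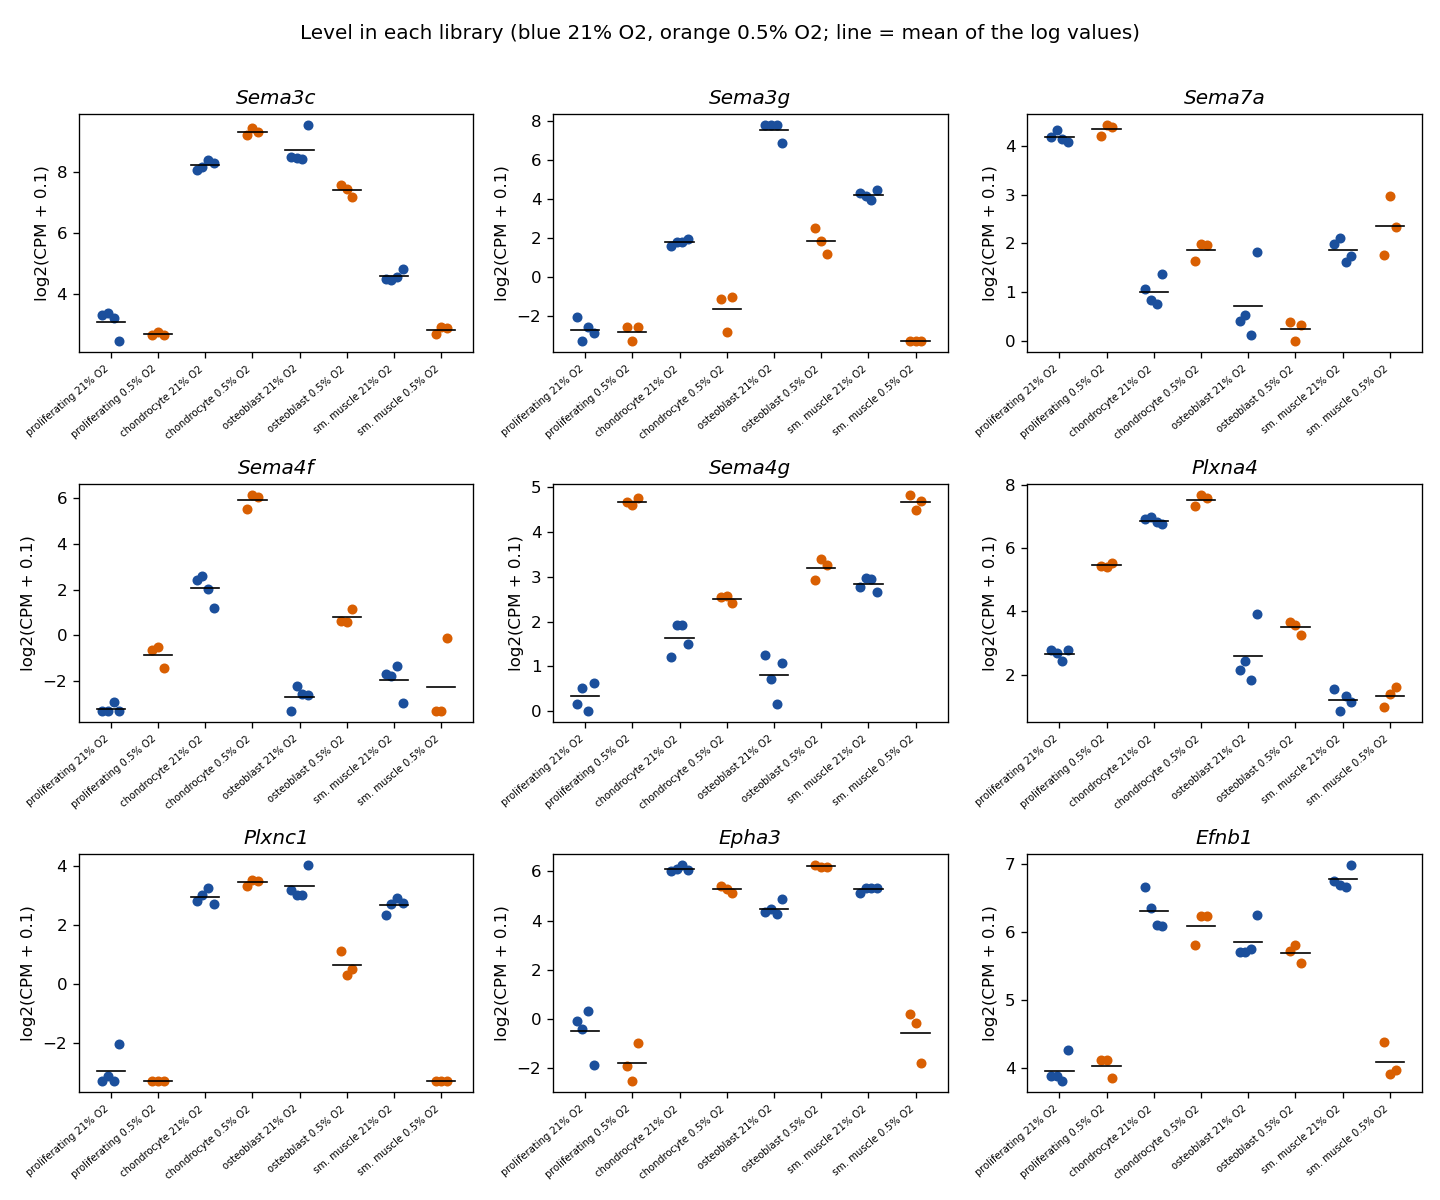
Level of 9 genes in each of the 28 libraries as log2(CPM + 0.1), with blue points for 21% O2, orange points for 0.5% O2 and a line at the mean of the log values. Sema7a is highest in the 7 proliferating libraries, Sema4f in the 3 hypoxic chondrocyte libraries and Sema3g in the 4 normoxic osteoblast libraries, of which 1 (118 CPM) lies below the other 3.

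In normoxic chondrocyte cultures 5 of 10 tested members of classes 4 to 7 rose and 2 fell, in osteoblast cultures 3 of 9 rose and 1 fell, against 24.3% and 20% of all tested genes, and in smooth muscle cultures 5 of 10 rose and 1 fell. Sema7a, a lipid-anchored semaphorin that binds integrins and plexin C1, was called lower in all 6 differentiated groups. It had 17.9, 19.9, 17.5 and 16.9 CPM in normoxic proliferating cells and 18.3, 21.3 and 20.8 CPM in hypoxic ones. No differentiated library exceeded 7.68 CPM, so proliferating and differentiated libraries did not overlap. The changes of Sema7a at 21% O2 were -3.14 (SE 0.14, adjusted p = 1.45e-09) in chondrocyte, -3.30 (SE 0.34, adjusted p = 1.31e-05) in osteoblast and -2.29 (SE 0.12, adjusted p = 5.49e-11) in smooth muscle cultures. Without normoxic osteoblast library 4 the osteoblast change of Sema7a was -3.93 (adjusted p = 1.22e-11). At 0.5% O2 it fell to 3.00, 3.86 and 3.81 CPM in chondrocyte cultures, a change of -2.51 (SE 0.14, adjusted p = 2.82e-09), and to 1.20, 0.893 and 1.16 CPM in osteoblast cultures, a change of -4.22 (SE 0.16, adjusted p = 3.93e-12).

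Plexin C1, its receptor, was higher in 5 of these 6 groups, and had 0 counts in hypoxic smooth muscle as in hypoxic proliferating cultures. Plxnc1 (chr10:94790866-94944835, minus strand) had 0, 0.0135, 0 and 0.14 CPM in normoxic proliferating cells, 5 counts in all. In the 4 chondrocyte libraries it had 7.01, 8.09, 9.57 and 6.51 CPM, a rise of 7.94 (SE 0.46, adjusted p = 1.51e-08). Plxnc1 also rose in normoxic osteoblast cultures, by 8.33 (SE 0.60, adjusted p = 1.02e-06), and in smooth muscle cultures, by 7.65 (SE 0.43, adjusted p = 1.56e-10). Normoxic proliferating library 4 held 4 of the 5 counts, and without it the rises of Plxnc1 were 9.61 in chondrocyte, 10.01 in osteoblast and 9.33 in smooth muscle cultures. Hypoxic proliferating cells had no count of Plxnc1, so the hypoxic chondrocyte cultures were at least 317-fold higher and the hypoxic osteoblast cultures at least 43.2-fold higher, from a floor of 3 counts over the group.

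Sema4f, a transmembrane semaphorin of class 4, was close to absent from proliferating cells, with 1 count in the 4 normoxic libraries together, and had 5.28, 6.07, 4.05 and 2.22 CPM in normoxic chondrocyte cultures. The ratio was 748 with a 95% counting interval of 134 to 29600 and an edgeR adjusted p of 7.4e-08. Sema5a, which carries thrombospondin repeats and can both attract and repel axons, was the most abundant semaphorin of classes 4 to 7 by counts and fell in normoxic chondrocyte cultures by 1.41 on the log2 scale (SE 0.06, adjusted p = 8.19e-10), from 179 to 193 CPM down to 60.4 to 71.5 CPM. In normoxic smooth muscle cultures it had 329 to 382 CPM, a change of 0.98 that stayed under the size limit. Sema4c, a ligand of plexin B2, changed by 0.51 to 0.94 in the 3 normoxic cultures and was not called in any of them. Sema6d, a ligand of plexin A1, rose in all 3 normoxic cultures, by 2.62, 4.44 and 2.53 in chondrocyte, osteoblast and smooth muscle cultures. Sema6c rose in the same 3, by 2.38, 3.98 and 4.66.

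Of the 8 plexins, 6 rose in normoxic chondrocyte cultures (19.9% of all tested genes did), 3 in osteoblast cultures (24.3%) and 3 in smooth muscle cultures (22.3%), and 1 fell in the last. Plxnb2 had 341, 330, 339 and 334 CPM in normoxic proliferating cells and 696, 721, 693 and 581 CPM in normoxic chondrocyte cultures, a rise of 1.07 (SE 0.07, adjusted p = 3.27e-08). Plxna1, a receptor for class 3 and class 6 semaphorins, changed by 0.70 in normoxic chondrocyte cultures and by less in the other 2, and was called in none. Plxna2 rose most in osteoblast cultures, by 4.63 at 21% O2 (SE 0.11, adjusted p = 1.14e-09) and 4.89 at 0.5% O2 (SE 0.12, adjusted p = 1.27e-14). Plxna4, a plexin of the sema3a receptor complex, rose in chondrocyte cultures from 5.34 to 6.72 CPM up to 108 to 127 CPM, by 4.29 (SE 0.09, adjusted p = 3.46e-12). In normoxic smooth muscle cultures Plxna4 changed by -1.43 (SE 0.17, adjusted p = 1.47e-06). The chondrocyte groups also had the highest summed levels of 5 neuron markers, at 226 to 333 CPM. Normoxic osteoblast libraries 1 to 3 had 51.7 to 54.3 CPM, and library 4 had 120 CPM. Hypoxic osteoblast cultures had 88.7 to 113 CPM, and proliferating and smooth muscle cultures at most 24.9 CPM. The sums were carried by Map2, Tubb3 and Stmn2, while Elavl4 and Syt1 were at or near 0. Whether neurons were present was not tested, nor was the part of these marker RNAs in the chondrocyte and osteoblast results. Plxnd1, which is best known from blood vessels, rose by 3.99 in normoxic chondrocyte cultures (SE 0.20, adjusted p = 3.87e-08), and the endothelial markers summed to 1.53 to 3.06 CPM there, against 0.405 to 0.762 CPM in proliferating cells. The endothelial marker that could be tested, Pecam1, was called higher too, at 2.79 (SE 0.37, adjusted p = 2.06e-05), and its part was not tested.

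Of 5 EphA receptors, 3 rose in each normoxic culture, and these were Epha3, Epha4 and Epha7. Epha1 fell in chondrocyte cultures, Epha1 and Epha2 in osteoblast cultures and Epha2 in smooth muscle cultures. Epha3 (chr16:63543534-63864175, minus strand), a receptor of ephrin-A5, had 0.834, 0.662, 1.16 and 0.175 CPM in normoxic proliferating cells and 64.5, 67.6, 75.7 and 67.1 CPM in chondrocyte cultures. Its rise there was 6.67 (SE 0.24, adjusted p = 2.03e-09), and it rose by 5.04 in osteoblast (SE 0.35, adjusted p = 7.97e-07) and 5.83 in smooth muscle cultures (SE 0.23, adjusted p = 2.24e-10). In hypoxic chondrocyte and osteoblast cultures Epha3 rose by 7.44 and 8.38, or by 8.28 and 9.21 without hypoxic proliferating library 3. Epha2, an ephrin-A1 receptor common in epithelia and tumours, behaved differently: it had 133 to 166 CPM in normoxic proliferating cells and 26.4 to 33.8 CPM in smooth muscle cultures, a change of -2.31 (SE 0.08, adjusted p = 5.96e-13). In normoxic osteoblast cultures Epha2 changed by -1.44 (SE 0.27, adjusted p = 0.000814), with 39.5, 42.0, 39.9 and 92.5 CPM, the highest again being library 4, without which the change was -1.89 (adjusted p = 1.51e-11). Epha1, at most 2.19 CPM in any library, changed by -1.58 in normoxic chondrocyte (SE 0.34, adjusted p = 0.00123) and -1.55 in osteoblast cultures (SE 0.38, adjusted p = 0.00404). Epha1 shares 236 exonic bases with Zyx on the other strand, and whether strand was used in counting is not given in the sources used here. Other members that share exonic bases with a gene on the other strand are Plxna1 with 970, Efna3 with 344, Sema4c with 334, Plxnb1 with 257, Efna4 with 168, Plxna4 with 110 and Ephb4 with 33 bases, so reads of the partner gene may be part of their values.

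The EphB receptors rose wherever they were called at 21% O2, with 3 of 4 in chondrocyte, 3 in osteoblast and 4 in smooth muscle cultures. Ephb3 had 23.2 to 25.4 CPM in normoxic proliferating cells and 106 to 135, 110 to 138 and 92.8 to 116 CPM in the chondrocyte, osteoblast and smooth muscle cultures. The rises of Ephb3 were 2.43 (SE 0.08, adjusted p = 1.02e-10), 2.46 (SE 0.08, adjusted p = 7.34e-09) and 2.12 (SE 0.07, adjusted p = 3.56e-13). Ephb4, an ephrin-B2 receptor that marks veins, had the highest level per kilobase among the EphB receptors and was called in 1 of the 3 normoxic cultures, smooth muscle, at 1.20 (SE 0.05, adjusted p = 2.38e-12).

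Among the ephrins, Efnb1 rose and Efnb2 fell in normoxic osteoblast and smooth muscle cultures. Efnb1 (chrX:99136130-99148991, plus strand), whose loss disturbs skull and face development in people and mice, had 13.8 to 19.1 CPM in normoxic proliferating cells. It rose by 2.45 in chondrocyte (SE 0.15, adjusted p = 1.13e-07), 1.97 in osteoblast (SE 0.16, adjusted p = 1.92e-06) and 2.88 in smooth muscle cultures (SE 0.11, adjusted p = 1.78e-11). Efnb2 had 193, 191, 180 and 140 CPM in normoxic proliferating cells and 43.5, 42.4, 42.5 and 52.5 CPM in smooth muscle cultures, a change of -1.91 (SE 0.10, adjusted p = 1.72e-09). In osteoblast cultures Efnb2 changed by -1.60 (SE 0.34, adjusted p = 0.00169), with 39.0, 39.0, 37.6 and 106 CPM, or by -2.18 (adjusted p = 1.5e-08) without library 4. Its change of -0.66 in normoxic chondrocyte cultures was not called. At 0.5% O2 it changed in the hypoxic chondrocyte, osteoblast and smooth muscle cultures by -1.36, -2.17 and -1.57. Of the ephrin-A genes, Efna3 rose most, from 0.232 to 0.324 CPM up to 24.2 to 35.9 CPM in normoxic chondrocyte cultures, by 6.87 (SE 0.18, adjusted p = 1.83e-11). Efna1, the usual ligand of Epha2, rose by 1.54, 1.05 and 1.24 in the 3 normoxic cultures, and Efna5 was called in none of them, with changes of -0.82, 0.60 and 0.77.

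The largest changes from proliferating cells at 0.5% O2 also included 4 semaphorins. In hypoxic chondrocyte cultures Sema4f rose from 0.553, 0.611 and 0.274 CPM in hypoxic proliferating cells to 46.3, 70.5 and 67.3 CPM, by 6.98 (SE 0.27, adjusted p = 2.79e-08). Sema6b went the other way there, from 3.41, 4.63 and 6.09 CPM to 0.161, 0.0394 and 0 CPM, a change of -6.02 (SE 0.53, adjusted p = 3.73e-07), or -7.72 without hypoxic chondrocyte library 1, which held 5 of its 6 counts. Sema3b, a secreted class 3 semaphorin, had 12.2, 11.6 and 11.7 CPM in hypoxic proliferating cells and 0.677, 1.14 and 1.15 CPM in hypoxic chondrocyte cultures, a change of -3.59 (SE 0.20, adjusted p = 3e-09). In none of these 3 genes did the groups overlap. In hypoxic osteoblast cultures Sema5a had 17.0, 13.1 and 15.3 CPM, against 149 to 158 CPM in hypoxic proliferating cells, a change of -3.35 (SE 0.09, adjusted p = 8.44e-14).

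The 2 members called higher in hypoxic smooth muscle cultures were Efna3 and Sema6c. Efna3 had 0.715, 0.575 and 0.616 CPM in hypoxic proliferating cells and 1.57, 5.39 and 4.45 CPM in the smooth muscle libraries, a rise of 2.67 (SE 0.51, adjusted p = 0.000652). Sema6c had 7.74, 7.22 and 6.71 CPM and 17.6, 10.5 and 19.0 CPM, a rise of 1.24 (SE 0.21, adjusted p = 0.000306). Both rises depend on the scaling, with 1.39 for Efna3 and -0.03 for Sema6c under library size alone. Plxna4 fell most, from 43.1, 42.4 and 46.2 CPM to 1.88, 2.49 and 2.96 CPM, by 4.06 on the log2 scale (SE 0.17, adjusted p = 2.14e-09). Sema6d followed, with 4.03, 3.85 and 4.83 CPM against 0, 0.599 and 0.185 CPM, a change of -3.99 (SE 0.63, adjusted p = 0.000151), or -3.32 and -5.47 without hypoxic smooth muscle libraries 1 and 2. The call of Ephb2 was less stable. It had 60 counts in hypoxic proliferating and 3 in hypoxic smooth muscle cultures, a ratio of 7.78 with a 95% counting interval of 2.54 to 38.8 (log2 change -2.75, SE 1.07, adjusted p = 0.0387), and dropping a library ended its call for 5 of the 6 libraries (edgeR adjusted p of 0.0601 to 0.178). Without the sixth, hypoxic smooth muscle library 3, which held all 3 counts, its change was -6.91.

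Each hypoxic group was then set against its normoxic counterpart. The hypoxia response list checked the labels. All 9 of its genes with a deposited symbol, Vegfa, Slc2a1 and Bnip3 among them, rose in proliferating, osteoblast and smooth muscle cultures. In chondrocyte cultures 8 of 9 rose. At 21% O2 the chondrocyte cultures already had 6 of the 9 higher than proliferating cells, with a median of 2.02. The sums there were 1447 to 2279 against 1127 to 1198 CPM. In proliferating cells, 9 of 40 guidance genes tested were higher at 0.5% O2 (11.6% of all genes) and 2 lower (6.93% of all genes). The 9 were Sema4g, Sema6b, Plxna4, Sema6c, Sema3b, Ephb2, Plxnd1, Efna3 and Epha1, and the 2 were Epha3 and Epha7. With at least 10 counts required in every library, 6 of 35 were higher and 1 lower. Of all 12687 genes then tested, 1213 were higher and 770 lower. Other RNAs moved with them: mt-Rnr1 and mt-Rnr2 were called higher, with a sum of 707 to 779 CPM for these and Rn7sk against 220 to 233 CPM at 21% O2. All 3 tested glial markers were higher (4.58 to 7.46 against 1.61 to 2.12 CPM in sum). Chondrocyte markers summed to 60.3 to 66.4 against 20.6 to 23.9 CPM and macrophage markers to 5.43 to 5.86 against 2.23 to 3.19 CPM. Of 4 tested neuron markers 1 was higher (15.3 to 18.8 against 5.25 to 9.74 CPM in sum). The 1 tested endothelial marker was higher at 1.35, and 1 of 6 neural crest markers was lower. Their part was not tested.

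Sema4g (chr19:44989101-45003397, plus strand), a transmembrane semaphorin, had 1.02, 1.34, 0.895 and 1.44 CPM at 21% O2 and 25.6, 24.1 and 27.1 CPM at 0.5% O2. The groups were far apart, and the difference was 4.48 (SE 0.14, adjusted p = 7.43e-12). Sema6b, a ligand of plexin A4, rose from 0.245 to 0.405 CPM up to 3.41, 4.63 and 6.09 CPM, by 3.85 (SE 0.28, adjusted p = 3.42e-08). Plxna4 itself rose from 6.72, 6.27, 5.34 and 6.72 CPM to 43.1, 42.4 and 46.2 CPM, by 2.87 (SE 0.09, adjusted p = 9.71e-12). Epha3 was called lower at -1.64 (SE 0.63, adjusted p = 0.0356), but its libraries overlapped between the groups and the call was lost in 6 of 16 alternatives. Epha7 had 2.22 to 3.23 CPM at 21% O2 and 0.856 to 1.40 CPM at 0.5% O2, a change of -1.33 (SE 0.24, adjusted p = 0.000265). Sema4f was not tested here, with 1 count at 21% O2 and 42 at 0.5% O2, a ratio of 81.3 with a 95% counting interval of 13.8 to 3290.

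Bases upstream of 5 of these 9 genes are shown because the transcription factors that act at low oxygen bind a short core, ACGTG or GCGTG. The RefSeq table (GRCm38.p6) held start sites for 7 of the 9, with 10 windows of 250 bases upstream. Searched on both strands, 7 of the 10 windows, in 6 of the 7 genes, held at least 1 core, against 38.6% of all 32851 windows and 25 of the 50 windows of the members. A match is a description of the letters and not of a bound site. Capitals mark the core on either strand (CACGT and CACGC are the cores read on the other strand) in the 5 windows with a core that lie outside GENCODE exons, each written 5′ to 3′ on the strand of its gene. They are Sema6b at chr17:56133853-56134102 (minus strand, a start site inside the longer gene), Plxnd1 at chr6:115995006-115995255 (minus strand), Ephb2 at chr4:136836013-136836262 (minus strand), Sema6c at chr3:95160170-95160419 (plus strand) and Efna3 at chr3:89321769-89322018 (minus strand, again a start site inside the longer gene).
Sema6b: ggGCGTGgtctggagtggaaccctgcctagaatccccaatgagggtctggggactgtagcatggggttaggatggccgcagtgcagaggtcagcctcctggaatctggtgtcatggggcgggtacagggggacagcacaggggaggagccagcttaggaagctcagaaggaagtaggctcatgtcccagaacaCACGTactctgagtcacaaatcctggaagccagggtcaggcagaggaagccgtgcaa
Plxnd1: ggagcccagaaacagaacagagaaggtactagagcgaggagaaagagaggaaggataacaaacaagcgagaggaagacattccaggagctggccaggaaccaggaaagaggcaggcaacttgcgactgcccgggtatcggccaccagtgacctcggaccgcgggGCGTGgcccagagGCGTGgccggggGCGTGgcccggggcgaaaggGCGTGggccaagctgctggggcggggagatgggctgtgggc
Ephb2: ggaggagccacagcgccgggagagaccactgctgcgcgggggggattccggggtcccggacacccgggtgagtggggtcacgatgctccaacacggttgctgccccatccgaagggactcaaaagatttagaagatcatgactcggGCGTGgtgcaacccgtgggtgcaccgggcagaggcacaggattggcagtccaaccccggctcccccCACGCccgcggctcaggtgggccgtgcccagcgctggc
Sema6c: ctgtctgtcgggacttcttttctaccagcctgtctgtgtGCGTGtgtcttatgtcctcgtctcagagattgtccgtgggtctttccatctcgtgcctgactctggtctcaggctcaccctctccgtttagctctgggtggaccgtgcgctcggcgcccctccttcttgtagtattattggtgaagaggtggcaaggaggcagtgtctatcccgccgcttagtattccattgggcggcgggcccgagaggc
Efna3: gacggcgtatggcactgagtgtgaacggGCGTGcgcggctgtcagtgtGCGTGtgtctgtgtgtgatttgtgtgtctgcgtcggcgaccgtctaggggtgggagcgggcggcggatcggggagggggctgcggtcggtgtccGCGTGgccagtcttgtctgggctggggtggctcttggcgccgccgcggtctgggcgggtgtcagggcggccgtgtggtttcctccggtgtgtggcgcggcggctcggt

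In chondrocyte cultures few genes of any kind were called between the oxygen levels, 891 of all 14205 tested. Of the guidance genes, 3 of 44 were higher (2.36% of all genes) and 1 lower (3.91% of all genes). Sema4f rose most, from 5.28, 6.07, 4.05 and 2.22 CPM to 46.3, 70.5 and 67.3 CPM, by 3.79 (SE 0.31, adjusted p = 0.000212). Sema3c rose from 269 to 338 CPM up to 600, 699 and 644 CPM, by 1.09 (SE 0.09, adjusted p = 7.67e-06). Sema3e rose by 1.38 (SE 0.36, adjusted p = 0.0168), a call that was lost without hypoxic chondrocyte library 1 (1.20, adjusted p = 0.0773). Sema3g was the member that fell, from 2.87 to 3.79 CPM down to 0.354, 0.0394 and 0.394 CPM, by 3.60 on the log2 scale (SE 0.43, adjusted p = 0.000154). The chondrocyte markers also fell, with all 4 tested called lower and sums of 653 to 1105 CPM against 2672 to 8303 CPM at 21% O2. Both tested glial markers were lower as well, with sums of 3.03 to 4.10 against 10.2 to 13.7 CPM. Of the others tested, 2 of 5 osteoblast markers were lower, 1 of 3 smooth muscle markers was higher, and so was 1 endothelial marker, with sums of 5.28 to 7.62 against 1.53 to 3.06 CPM. The part of these shifts in the values above was not tested.

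In osteoblast cultures 8 of 45 members were higher at 0.5% O2 (10.5% of all genes) and 13 lower (11.9% of all genes). Without normoxic osteoblast library 4 there were 10 higher and 15 lower (1693 and 1776 of all 14295 genes). Without that library Ephb2 (1.3, adjusted p = 4.31e-05) and Plxna4 (1.37, adjusted p = 1.4e-05) became higher, and Sema3b (-1.08, adjusted p = 2.96e-05) and Sema6c (-1.04, adjusted p = 3.64e-05) became lower. With library size alone there were 7 higher and 16 lower (1255 and 2174 of all 14533 genes). With at least 10 counts in every library there were 5 higher and 12 lower of 40 (1132 and 1184 of all 12611 genes). Sema4f (4.67, SE 0.55, adjusted p = 0.000108), Sema6b (3.53, SE 0.53, adjusted p = 0.000492, or 4.16 without normoxic osteoblast library 3) and Sema4g (2.41, SE 0.26, adjusted p = 6.48e-05) rose most. Sema4g had 1.02 to 2.27 CPM at 21% O2 and 7.47, 10.4 and 9.58 CPM at 0.5% O2. Of the EphA receptors 3 rose, Epha1, Epha2 and Epha3, and Epha3 went from 18.9 to 29.0 CPM up to 72.1 to 76.3 CPM, by 1.71 (SE 0.14, adjusted p = 1.34e-05). Sema3g fell most (-5.71, SE 0.41, adjusted p = 2.21e-05), followed by Sema6a (-4.50, SE 0.51, adjusted p = 8.42e-05) and Epha7 (-3.15, SE 0.19, adjusted p = 2.02e-06). Epha7 had 11.4 to 12.1 CPM at 21% O2 and 1.67, 1.27 and 0.986 CPM at 0.5% O2. Nrp1 fell from 332 to 454 CPM down to 186 to 200 CPM, by 1.09 on the log2 scale (SE 0.12, adjusted p = 5.95e-05). Cell type markers moved too. The osteoblast markers summed to 366 to 393 CPM at 0.5% O2, with 2 of 4 tested called higher. At 21% O2 they summed to 62.7 to 72.8 CPM in libraries 1 to 3 and 146 CPM in library 4. The smooth muscle markers summed to 1715 to 2005 CPM at 0.5% O2, with 2 of 4 lower. At 21% O2 they summed to 3065 to 3220 CPM in libraries 1 to 3 and 4684 CPM in library 4. The chondrocyte markers summed to 407 to 443 CPM, against 129 to 145 CPM in 3 normoxic osteoblast libraries and 1254 CPM in library 4, and the edgeR adjusted p of the 4 tested ran from 0.114 (Col9a1) to 0.488 (Comp). Of 7 neural crest markers 2 were higher and 1 lower, of 4 neuron markers 1 was higher, and of 2 macrophage markers 1 was higher. Of the 3 genes kept as signs of RNA quality 1 was higher, with sums of 795 to 866 against 268 to 481 CPM. Their part in the osteoblast results was not tested.

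**Figure D4:**
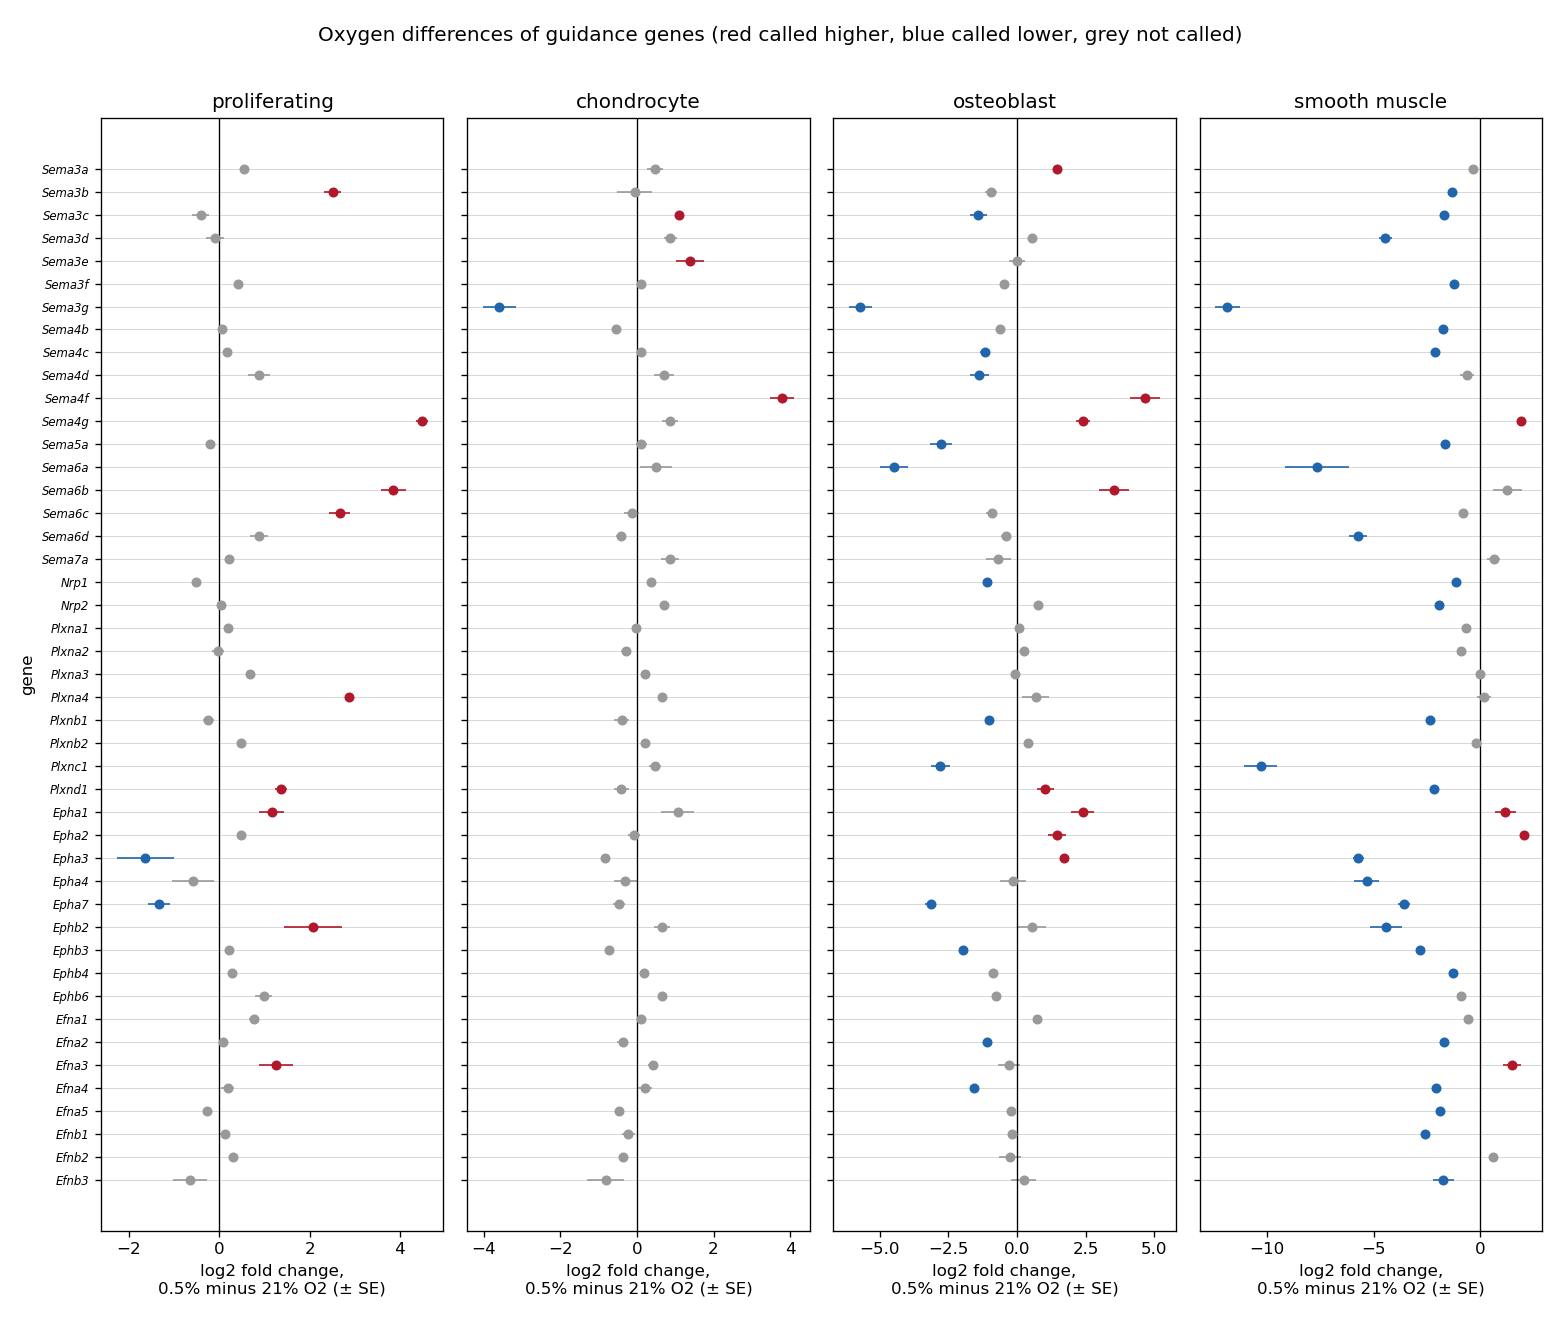
Log2 fold change of each gene, 0.5% minus 21% O2, with its SE, in the 4 culture types (red called higher, blue called lower, grey not called; each panel has its own scale, and genes without a point were not tested). The chondrocyte panel is mostly grey, with 4 of 44 genes called (891 of all 14205 genes were called). The smooth muscle panel is mostly blue, with 26 of 43 lower (3869 of all 14914 genes were lower).

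In smooth muscle cultures 4 of 43 members were higher at 0.5% O2 (23.5% of all genes) and 26 lower (25.9% of all genes). The libraries of the hypoxic group are those with 11.6% to 13.3% ribosomal RNA and smooth muscle markers at the level of proliferating cells, and the macrophage marker sum there was 33.6 to 37.4 CPM, against at most 1.75 CPM at 21% O2. Library size alone moved the median of all genes to -1.49 and gave 0 members higher and 36 lower. Of all 14914 genes tested, 1422 were then higher and 9089 lower. Among those tested, 5 of 6 class 3 semaphorins, 5 of 10 semaphorins of classes 4 to 7, both neuropilins and 3 of 8 plexins fell, and 1 semaphorin of classes 4 to 7 rose. Of the EphA receptors 3 of 5 fell and 2 rose, 3 of 4 EphB receptors fell, 3 of 5 ephrin-A genes fell and 1 rose, and 2 of 3 ephrin-B genes fell. Sema3d went from 35.4 to 37.4 CPM down to 3.08, 0.299 and 1.11 CPM, by 4.45 on the log2 scale (SE 0.32, adjusted p = 1.39e-08), and Epha3 from 34.6 to 40.6 CPM down to 1.05, 0.798 and 0.185 CPM, by 5.72 (SE 0.25, adjusted p = 2.28e-11). Sema3g, Plxnc1 and Sema6a had 0 counts in the hypoxic libraries, so they were at least 214-fold, 72.7-fold and 11.6-fold lower than at 21% O2.

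The 4 that were higher were Epha2, Sema4g, Efna3 and Epha1. Epha2 had 29.4, 26.4, 27.8 and 33.8 CPM at 21% O2 and 126, 96.3 and 125 CPM at 0.5% O2, a difference of 2.05 (SE 0.11, adjusted p = 3.24e-10). Sema4g had 6.21 to 7.76 CPM and 28.2, 22.6 and 25.9 CPM, a difference of 1.92 (SE 0.14, adjusted p = 1.13e-08). With library size alone these became 0.68 for Epha2 and 0.55 for Sema4g, both under the size limit, and Efna3 became 0.10 (adjusted p = 0.815) instead of 1.48.

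An interaction term, the hypoxic change from proliferating cells minus the normoxic one, tested whether that change differed between the 2 oxygen levels. The smooth muscle term carries the ribosomal RNA and marker shift of the hypoxic smooth muscle libraries given above, whose part was not tested. In chondrocyte cultures 1 of 45 members was higher (4.08% of all genes) and 7 lower (9.99% of all genes). In osteoblast cultures 3 were higher (12.2% of all genes) and 16 lower (14.5% of all genes). Without normoxic osteoblast library 4 these were 4 and 15 (2091 and 2341 of all 15378 genes). Epha4 became higher at 1.11 (adjusted p = 0.00993), and Efna3 at -0.98 was no longer called. In smooth muscle cultures 1 of 44 was higher (24.5% of all genes) and 31 lower (25.5% of all genes). The higher counts were unstable: leaving out 1 library at a time gave 1 to 4 in osteoblast and 1 to 3 in chondrocyte cultures. With no filter on low counts the osteoblast count was 1 (1873 of all 25684 genes). With at least 10 counts in every library it was 0 of 33 by edgeR (1402 of all 11822 genes). Epha1 and Epha3 did not pass that filter. Library size alone gave 1 higher and 17 lower in osteoblast cultures (1512 and 2616 of all 15486 genes). It gave 0 higher and 40 lower of 44 in smooth muscle cultures (1338 and 8434 of all 15640 genes).

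At 21% O2 Sema4g had 0.895 to 1.44 CPM in proliferating cells and 2.22 to 3.70 CPM in chondrocyte cultures, and at 0.5% O2 it fell from 24.1 to 27.1 CPM down to 5.22 to 5.87 CPM, an interaction of -3.61 (SE 0.25, adjusted p = 7.36e-09). Sema6b had a term of -5.05 (SE 0.97, adjusted p = 0.000366) in the chondrocyte cultures, or -6.78 (adjusted p = 0.000146) without hypoxic chondrocyte library 1 and -4.45 without library 3, and Sema6c one of -3.55 (SE 0.30, adjusted p = 1.29e-07) in osteoblast cultures. Sema3c had the positive chondrocyte term, 1.53 (SE 0.22, adjusted p = 8.33e-05), with rises of 6.69 at 0.5% O2 and 5.19 at 21% O2. Epha3 had a positive osteoblast term of 3.39 (SE 0.59, adjusted p = 0.000258), with rises of 8.38 and 5.04, and the term was 4.23 without hypoxic proliferating library 3. Epha2 had the positive smooth muscle term, 1.62 (SE 0.13, adjusted p = 4.28e-10), which became 0.28 (adjusted p = 0.067) with library size alone. The interactions share the proliferating groups, so they are not independent of each other. Other genes had such terms too. In chondrocyte cultures 8 of 9 hypoxia response genes, 3 of 3 glial markers and 2 of 3 signs of RNA quality were lower. None of these was higher. In osteoblast cultures 2 of 3 glial, 1 of 4 smooth muscle and 1 of 7 neural crest markers were lower. There 1 each of the osteoblast, neuron, macrophage and neural crest markers was higher. Their part was not tested.

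Other guidance genes were counted from lists of the same kind. Of 10 other receptors, 5 had a deposited symbol (Robo1, Robo2, Neo1, Unc5b and Unc5c). All 5 rose in normoxic chondrocyte cultures (19.9% of all tested genes did) and 4 in osteoblast cultures (24.3%). In smooth muscle cultures 3 of 4 tested rose (22.3%), and Unc5b fell. Robo2, a receptor for Slit proteins, rose by 8.84 in normoxic chondrocyte (SE 0.37, adjusted p = 9.7e-09), 9.83 in osteoblast (SE 0.41, adjusted p = 2.61e-08) and 6.82 in smooth muscle cultures (SE 0.26, adjusted p = 1.46e-12). Of 12 other ligands, 4 rose and 4 fell of 9 tested in normoxic chondrocyte cultures. In osteoblast cultures 4 rose of 8, and in smooth muscle cultures 3 of 7. The same shares of all genes rose, and 15.4%, 20% and 17% fell in that order. Among 27 partners of plexin signalling, 8 of 24 rose and 2 fell, 7 of 23 rose and 2 fell, and 5 of 22 rose and 3 fell in the same order, against 19.9% and 15.4%, 24.3% and 20%, and 22.3% and 17% of all tested genes. Mical1, an actin-oxidising enzyme that acts downstream of plexins, rose in all 3, by 8.26, 5.91 and 6.23. Among 23 partners of Eph signalling, 6 of 21 rose and 3 fell, 4 rose and 5 fell, and 4 rose and 4 fell, against the same shares of all genes. Ngef, an exchange factor that acts downstream of EphA receptors, was called lower in all 3, at -3.08, -7.87 and -4.78. At 0.5% O2 in proliferating cells, 6 of 23 plexin partners were higher and 0 lower by edgeR, and 1 of 21 Eph partners was higher and 2 lower, against 11.6% and 6.93% of all genes.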

How the data were processed

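RNA from 28 libraries was compared by gene. The count table holds raw counts per gene as the authors deposited them. HISAT2 2.0.5, StringTie 1.3.3b, featureCounts 1.5.0-p3 and mm10 are named in the submitters' processing notes, with no role or order, and the annotation release and use of strand in counting are not given in the sources used here. The authors also deposited 10 comparison tables with log2 fold changes and p-values. They served as a check: all 428 member values held by both had the same sign. The 70 columns of per-library normalised values in those tables were not used.

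Counts were tested with edgeR 4.0.16 (quasi-likelihood test, robust, TMM scaling, R 4.3.3) on each pair of groups, after filterByExpr (minimum count 10, minimum total 15), with Benjamini-Hochberg adjustment over all genes tested. A call needs an adjusted p under 0.05 and at least a 2-fold change. The 3 interactions were fitted on 4 groups each. The steps were tested on simulated data. Intervals and the floor of 3 counts cover counting error only. Depth is given above.

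Members, gene lists and tests were chosen with earlier results of these data known. Named by rule were the 3 largest non-overlapping called changes each way in each pairwise comparison, the 2 largest each way in each interaction, and the 2 most abundant members of each of 8 roles. Members beyond this rule were chosen after their values were seen. Same-numbered libraries had correlations of -0.08 to 0.118, over 0.1 for all pairs in 0 of 10 comparisons, so numbers were not treated as pairs. Alternatives were other scalings, filters, DESeq2 1.42.0, limma 3.58.1, a joint fit, a replicate block, removal of mitochondrial genes and Rn7sk, and leaving out libraries. Leaving out the normoxic libraries numbered 4, and ranking levels without normoxic osteoblast library 4, were chosen after seeing the data.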

Additional observations from a re-analysis of the deposited data

Results flagged for a closer look

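Among 132 group values of 33 named members, 25 had 1 library outside the others of its group by Dixon's test, which flags about 1 in 20 groups by chance. The test was applied to the 4 normoxic groups, and the 4 hypoxic groups of 3 libraries were too small for it. Most were in normoxic osteoblast library 4. It was high for Sema3c at 748 CPM (others 344 to 363), Plxnc1 at 16.3 (7.97 to 9.01), Sema7a at 3.43 (0.983 to 1.34), Efnb2 at 106 (37.6 to 39) and Epha2 at 92.5 CPM (39.5 to 42). It was also high for Plxna4 at 14.9 (3.49 to 5.28), Ephb2 at 8.43 (2.07 to 2.66) and Efnb1 at 76.4 CPM (52.1 to 53.6). It was low for Sema3g at 118 CPM (222 to 223), Sema5a at 41.9 (118 to 133), Sema3b at 13.1 (20 to 20.7) and Sema3f at 128 CPM (201 to 209). It was low too for Ephb3 at 110 (135 to 138), Nrp2 at 193 (262 to 272) and Plxna1 at 189 CPM (242 to 248).

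In normoxic proliferating library 4, Plxnc1 was at 0.14 CPM (0 to 0.0135), Efna1 at 20.3 (14.5 to 15.3), Efnb1 at 19 (13.8 to 14.6) and Nrp1 at 90.9 CPM (98.8 to 100). Sema4f had its 1 count, 0.0331 CPM, in normoxic proliferating library 3. In normoxic smooth muscle library 4, Efnb2 was at 52.5 CPM (42.4 to 43.5) and Plxnb2 at 501 CPM (417 to 422). In normoxic smooth muscle library 1, Epha3 was at 34.6 CPM (40 to 40.6) and Efna5 at 86.2 CPM (93.5 to 94.9). Epha2 in normoxic chondrocyte library 1 was at 145 CPM (106 to 107).

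The change from proliferating cells differed between the oxygen levels, by the interaction test, for 10 named values. In chondrocyte cultures these were 1.53 for Sema3c, -5.05 for Sema6b and -3.61 for Sema4g. In osteoblast cultures they were 3.39 for Epha3, 1.27 for Epha1, -4.28 for Sema6a and -3.55 for Sema6c. In smooth muscle cultures they were 1.62 for Epha2, -12.16 for Sema3g and -7.80 for Sema6a. The last 2 values rest on a hypoxic group with 0 counts and depend on the prior count, so they are no bound. The smooth muscle values also carry the ribosomal RNA and marker shift of the hypoxic smooth muscle libraries, whose part was not tested.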

How the results depend on the processing

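Of the values of named members under the alternatives, 1103 kept their direction and call, 23 lost the call and 1 reversed. With library size alone, 34 members were called in hypoxic smooth muscle against hypoxic proliferating cells (14 in the main result). Of all 14080 genes tested, 9424 were then called (5839 in the main result). Sema6c became -0.03 in that setting (edgeR adjusted p = 0.905). With at least 10 counts in every library, 7 were called in hypoxic against normoxic proliferating cells (11 in the main result). Of all genes tested, 1983 of 12687 were then called (2628 of 14156 in the main result). Epha1 in the osteoblast interaction lost its call in 11 settings, with values of 1.07 to 1.31. Ephb2 in hypoxic smooth muscle against proliferating cells lost it with DESeq2 (-2.76, adjusted p = 0.0581) and in 5 of the 6 fits without 1 library (adjusted p of 0.0601 to 0.178), and Sema6a in the osteoblast interaction without hypoxic proliferating library 1 (-3.53, adjusted p = 0.0867). The causes were not tested.

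Leaving out each library in turn gave 27 to 31, 26 to 27 and 31 to 32 called members in the normoxic chondrocyte, osteoblast and smooth muscle comparisons with proliferating cells, and 29 to 32, 29 to 30 and 13 to 17 in the hypoxic ones. Between oxygen levels it gave 10 to 12 in proliferating, 3 to 5 in chondrocyte, 19 to 25 in osteoblast and 29 to 31 in smooth muscle cultures, and 8 to 11, 15 to 19 and 32 to 33 in the interactions. The replicate block needed matching numbers, so across oxygen levels it also left out the normoxic libraries numbered 4. It gave 10 members higher and 15 lower in hypoxic against normoxic osteoblast cultures, as did leaving those libraries out with no block. Genes with few counts limit what the depth can show, Sema4f, Sema3e and Plxnc1 in proliferating cells among them.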
